A study of Mus musculus with 6 samples.

Results

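The 9 genes described here encode interleukin-1 (IL-1) family ligands, their antagonist and their receptors: the ligands Il1a, Il1b, Il18 and Il33, the antagonist Il1rn, the receptors Il1r1 and Il1rl1, the decoy receptor Il1r2 and the shared receptor subunit Il1rap. They were taken by gene symbol from a table of 53715 genes, and all 9 passed the filter on low counts that left 26559 genes for testing. The family was chosen with its difference between stimulated and sham libraries in view, so its values in that contrast are given as a description, with no test. RNA came from male wild-type (WT) C57BL/6J mice aged 14 weeks, from cells of the gastrocnemius-soleus complex gated as CD146+CD45-CD31-, the surface profile used for pericytes, which sit on the outside of capillary walls. In the 3 stimulated mice an electrical stimulus made the lower leg muscles contract 40 times in about 10 minutes, of which 20 contractions were eccentric (lengthening) and 20 concentric (shortening), and tissue was taken 3 hours later. The 3 sham mice were not stimulated. Strain, genotype, sex, age and sort were shared by both groups, and the stated group size of 3 is read as 1 animal per library. The titles number the libraries 1 to 3 in each group while the descriptions call each of them replicate 1, so if they were not separate animals the SDs and p-values would cover only the spread between these libraries.

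IL-1 alpha and IL-1 beta bind the receptor encoded by Il1r1, which then recruits the accessory protein encoded by Il1rap and signals through MyD88 to NF-kB and MAP kinases. The receptor antagonist encoded by Il1rn occupies the same receptor without recruiting the accessory protein, and the type 2 receptor encoded by Il1r2 binds ligand but lacks the cytoplasmic signalling domain. IL-33, a nuclear protein released from damaged cells, signals through ST2 (Il1rl1) with the same accessory protein, and IL-18 uses a receptor pair of its own. IL-1 beta and IL-18 are made as precursors that caspase-1 cleaves in inflammasomes, and myeloid cells are well known sources of IL-1 beta, IL-1 receptor antagonist and the decoy receptor.

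The libraries held 17520338 to 23709220 estimated reads. The sort genes did not stand as the gate would have them: Mcam (CD146) was at 24.3 to 54.1 CPM (estimated counts scaled to a common library size by TMM) after stimulation and 39.1 to 105.0 CPM in sham. Ptprc, which encodes the leukocyte antigen CD45, was at 989.0 to 1040.0 and 194.0 to 863.0 CPM, and Pecam1, which encodes the endothelial antigen CD31, at 384.0 to 577.0 and 524.0 to 1280.0 CPM. No marker of the 12 cell type lists read here was at 0 in every library. Sham replicate 2 stood apart, with the lowest summed lymphocyte markers (247.6 CPM, with 1492.0 to 2260.0 elsewhere) and the highest summed endothelial markers (11560.0 CPM against 2871.0 to 6788.0). In bulk libraries of this kind fewer cells of a type and less RNA per cell cannot be told apart.

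In the stimulated libraries Il1rn, Il1b, Il1r2, Il33 and Il1rap stood above every sham library, whereas Il1a, Il18, Il1r1 and Il1rl1 overlapped between the groups. That is 5 of 9 members with groups that did not overlap, all higher after stimulation. Among all 26559 tested genes, 6.12% were higher and 5.89% lower without overlap, and since the members were chosen on this contrast nothing is read from the difference. By sign, 8 of 9 members had a log2 fold change above 0 (48.0% of all genes) and the median member was at 0.56, against -0.02 for all genes. Without sham replicate 2 the same 5 members did not overlap, beside 9.18% of all genes higher and 8.25% lower. edgeR's quasi-likelihood test called 0 of the 26559 genes (0.0%) at a Benjamini-Hochberg adjusted p of 0.05, with 1872 genes (7.05%) at an unadjusted p under 0.05. limma voom also called 0, and DESeq2 called 227 (0.855%).

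**Figure D1:**
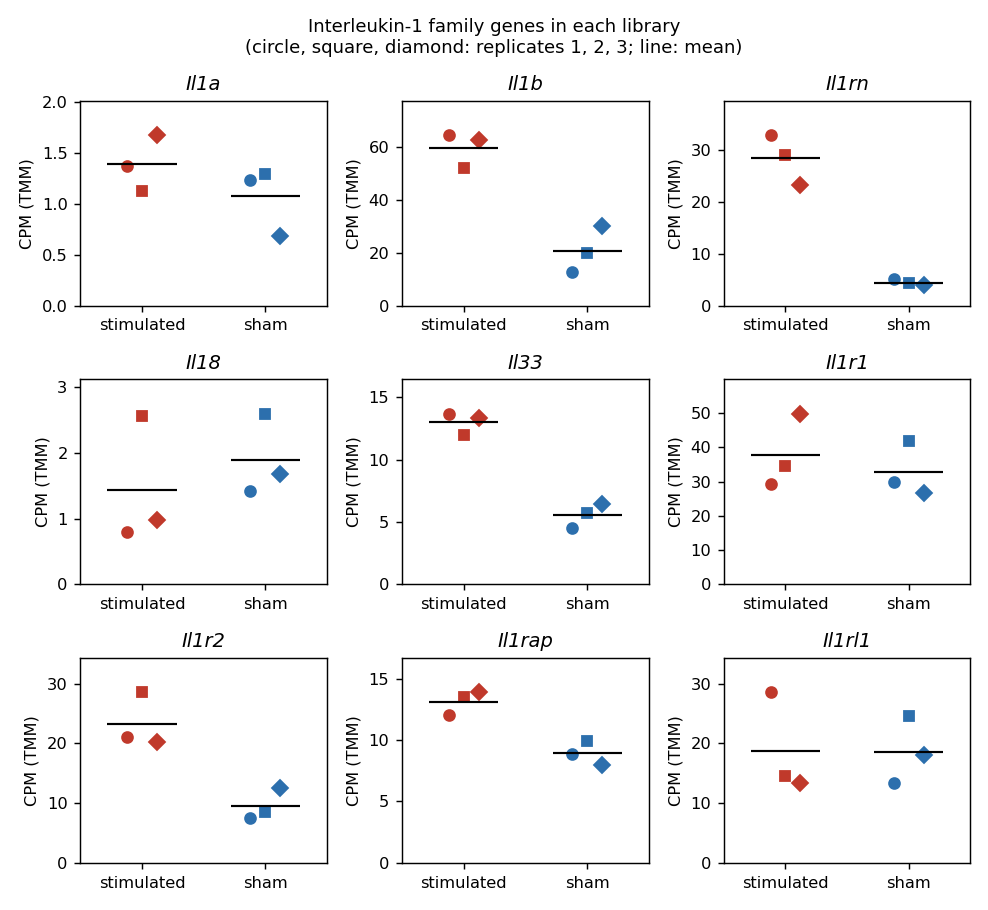
CPM (TMM-scaled, linear axes from 0) of the 9 genes in the 3 stimulated (red) and 3 sham (blue) libraries, with circle, square and diamond for replicates 1, 2 and 3 and a line at the group mean. For Il1rn the stimulated libraries lie between 23.2 and 32.9 CPM and the sham libraries between 3.94 and 5.11 CPM, the widest gap of the 9 genes in fold terms.

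Il1rn (ENSMUSG00000026981.15, chr2:24336853-24351494, plus strand, GRCm38) encodes the receptor antagonist, which blocks IL-1 alpha and IL-1 beta alike. Its transcripts differ at the 5′ end, and also in length at the 3′ end. The 5′ sequences below are shown because they decide whether the protein is secreted. Il1rn-201 (178 residues) begins with the bases that encode a signal peptide and is the secreted form. Il1rn-202 (162 residues), whose first exon starts only a few bases upstream of that of Il1rn-201, and Il1rn-204 (159 residues), which starts at an exon far upstream, lack those bases and encode intracellular forms. Lower case marks the 52 coding bases shared by all of them, and capitals mark the coding bases ahead of those in each form. The stretches are from GENCODE M21 transcripts and run 5′ to 3′ from the start codon to the end of the first shared coding exon, which spans chr2:24345453-24345571 from the secreted start codon, chr2:24345350-24345571 from the downstream intracellular one and chr2:24336983-24345571 from the upstream one, introns removed.
Il1rn-201: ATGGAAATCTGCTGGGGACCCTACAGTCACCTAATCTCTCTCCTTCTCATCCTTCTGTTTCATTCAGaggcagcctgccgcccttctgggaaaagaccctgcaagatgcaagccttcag
Il1rn-202: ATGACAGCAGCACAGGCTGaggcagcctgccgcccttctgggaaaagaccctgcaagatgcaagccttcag
Il1rn-204: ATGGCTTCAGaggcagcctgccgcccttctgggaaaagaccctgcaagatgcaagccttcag

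The secreted form has 67 coding bases in capitals, the downstream intracellular form 19 and the upstream form 10. The 19 of Il1rn-202 are not its own as RNA, since they lie in the first exon of Il1rn-201 ahead of its start codon. Over the whole transcripts, Il1rn-202 holds 22 bases that Il1rn-201 lacks and shares 706 with it, so reads within those 706 bases are divided between the forms by the authors' estimation, not observed directly. Il1rn-201 holds 1280 bases that Il1rn-202 lacks, 151 at the 5′ end and 1129 at the 3′ end. Most bases that tell Il1rn-201 from Il1rn-202 thus lie at the 3′ end, not in the signal peptide stretch.

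In the gene table Il1rn was at 32.9, 29.0 and 23.2 CPM in stimulated replicates 1 to 3 and at 5.11, 4.39 and 3.94 CPM in sham replicates 1 to 3. The lowest stimulated library was thus far above the highest sham library, and the spread within each group was small beside the gap. The group means were 28.4 ± 4.87 and 4.48 ± 0.591 CPM (SD, n = 3), and the fitted log2 fold change was 2.66 (SE 0.27), or 6.32-fold. It rested on 480 to 647 estimated reads per stimulated library and 73 to 103 per sham library. Leaving out any 1 library kept it between 2.58 and 2.79.

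The secreted and both intracellular forms were all higher after stimulation. Reads assigned to the secreted form came to 13.2, 9.39 and 9.26 RPM (estimated reads scaled as for CPM) in the stimulated libraries and to 0.618, 1.91 and 2.4 in sham. The downstream intracellular form had 12.2, 11.5 and 8.34 RPM against 1.3, 1.44 and 0.908. The upstream intracellular forms, Il1rn-204 and the short Il1rn-205, had 6.09, 2.14 and 4.19 against 1.96, 0.52 and 0.163. In each of the 3 forms every stimulated library was above every sham library, though the upstream forms came close to overlapping, at 2.14 against 1.96. The ratios of group means were 6.46 for the secreted, 8.84 for the downstream and 4.7 for the upstream forms. The ratio of the upstream forms rested on sham replicate 1: it was 12.1 without that library, above the 9.12 of the downstream and the 4.92 of the secreted form, and 3.34 to 5.84 without any other.

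The shares of the secreted and upstream forms varied less among the stimulated than among the sham libraries, and that of the downstream form did not. By estimated reads the secreted form held 39.61 ± 0.83% (SD, n = 3) of the gene after stimulation and 40.01 ± 24.82% in sham, where single libraries ran from 13.43 to 62.57%. The downstream form held 40.28 ± 7.15% and 28.33 ± 4.72%, with no overlap between 35.91% and 33.09%. The upstream forms held 15.07 ± 5.21% and 19.6 ± 20.35%. Counted per length, as shares of the gene's TPM, the downstream form held 61.78 ± 6.28% and 43.11 ± 6.2%, the secreted form 18.55 ± 1.15% and 19.95 ± 14.02%, and the upstream forms 9.29 ± 2.84% and 16.47 ± 23.4%. Which form was most abundant in the stimulated libraries therefore depended on the scale: by reads the secreted and downstream forms were level, and per length the short downstream form led. Sham shares rest on few reads, for example 13.9 reads for the secreted form in sham replicate 1 and 3.1 for Il1rn-204 in sham replicate 3.

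**Figure D2:**
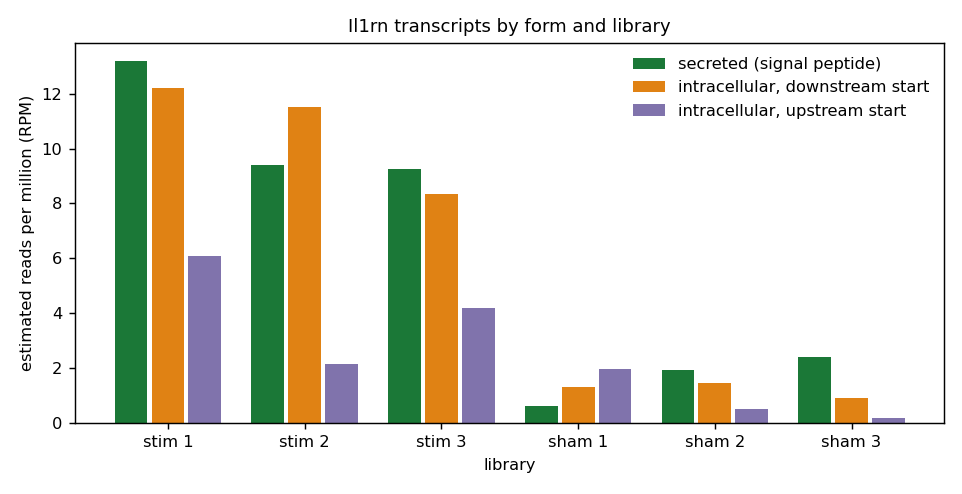
Estimated reads, as RPM, assigned to the secreted form (green), the downstream intracellular form (orange) and the upstream intracellular forms (purple) of Il1rn in each of the 6 libraries, as bars from 0. Each form stands higher in every stimulated library than the same form in any sham library, and the order of the forms varies among the sham libraries.

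The windows around the Il1rn starts were read for sequence motifs, because transcripts from the upstream and the downstream start both differed in level. RefSeq (GRCm38.p6) lists 14 windows for the 9 genes, each with 250 bases before and 50 after a start. Motifs were picked after the expression values were known, and both strands were searched for GGGANNNNCC (NF-kB-like), TGANTCA (AP-1) and GAGGAAGT (the core bound by PU.1). The upstream Il1rn window, chr2:24336610-24336909 on the plus strand, is printed because it held a match to each of the first pair, in capitals, which do not overlap.
Il1rn upstream start: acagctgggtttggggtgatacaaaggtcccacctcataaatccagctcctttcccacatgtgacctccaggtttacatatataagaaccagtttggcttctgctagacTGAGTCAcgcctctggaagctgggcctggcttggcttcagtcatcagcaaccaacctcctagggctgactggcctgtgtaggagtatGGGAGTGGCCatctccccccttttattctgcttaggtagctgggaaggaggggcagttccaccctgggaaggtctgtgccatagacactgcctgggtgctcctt

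Both Il1rn windows at the downstream starts (chr2:24345041-24345340 and chr2:24345121-24345420) held no match to any of the 3 motifs. Across the 14 windows, 2 held the NF-kB-like motif (Il1rn upstream and Il1rap), 2 the AP-1 motif (Il1rn upstream and Il1a) and 0 the PU.1 core. Among 32851 RefSeq windows of the same length the shares were 20.7%, 7.81% and 3.2%. A match describes letters in the window, not binding.

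Il1b (ENSMUSG00000027398.13, chr2:129364570-129371139, minus strand) encodes IL-1 beta, the secreted ligand made on demand by inflammatory cells. It was at 64.6, 52.0 and 62.8 CPM after stimulation and at 12.7, 19.9 and 30.1 CPM in sham. All stimulated libraries were above all sham libraries, and the sham libraries were the more spread (a coefficient of variation of 41.8% against 11.4%). The means were 59.8 ± 6.85 and 20.9 ± 8.74 CPM (SD, n = 3), with a fitted log2 difference of 1.52 (SE 0.33), or 2.86-fold. It was 1.89 without sham replicate 3 and 1.26 without sham replicate 1. The full-length coding transcript Il1b-201 (269 residues) held 72.01 ± 4.56% of the gene's reads after stimulation and 72.79 ± 4.46% in sham (SD, n = 3), shares that differed by less than the spread between libraries.

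Il1a (ENSMUSG00000027399.1, chr2:129299610-129309972, minus strand) encodes IL-1 alpha, an alarmin that is active without caspase-1 cleavage. It was at 1.37, 1.13 and 1.68 CPM after stimulation and at 1.24, 1.3 and 0.683 CPM in sham. The groups overlapped and the levels were low, with 12 to 40 estimated reads per library. The log2 fold change was 0.37 (SE 0.47), and 0.15 to 0.54 when each library was left out, a difference not detectable at this depth.

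Il18 (ENSMUSG00000039217.13, chr9:50554827-50581840, plus strand) encodes IL-18, which primes lymphocytes to make interferon gamma. It was at 0.79, 2.56 and 0.972 CPM after stimulation and at 1.42, 2.6 and 1.68 CPM in sham. Stimulated replicate 2 lay among the sham libraries and the other stimulated libraries lay below them. Its log2 fold change of -0.39 (SE 0.55) was the only negative one of the 9, and it moved to -1.10 without stimulated replicate 2 and to -0.06 without stimulated replicate 1. The gene had 15 to 49 estimated reads per library.

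Il33 (ENSMUSG00000024810.16, chr19:29925114-29960718, plus strand) encodes IL-33, in muscle known as a product of fibro-adipogenic and other stromal cells that acts on regulatory T cells bearing ST2. It was at 13.7, 12.0 and 13.3 CPM after stimulation and at 4.49, 5.74 and 6.46 CPM in sham. The stimulated libraries lay close together, all above sham. The means were 13.0 ± 0.924 and 5.56 ± 0.998 CPM (SD, n = 3), with a fitted log2 difference of 1.23 (SE 0.27), or 2.34-fold, and it stayed between 1.09 and 1.36 when each library was left out. Il33-202 (266 residues) held 51.10 ± 6.31% of the reads after stimulation and 54.72 ± 8.93% in sham.

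Il1rl1 (ENSMUSG00000026069.15, chr1:40429570-40465415, plus strand), the gene of the IL-33 receptor ST2, showed no such separation. It was at 28.6, 14.5 and 13.3 CPM after stimulation and at 13.3, 24.6 and 18.0 CPM in sham, and stimulated replicate 1 held the highest value of all. The log2 fold change was 0.01 (SE 0.37). Without stimulated replicate 1 it was -0.37 and without sham replicate 2 it was 0.26, so its sign was set by single libraries. The gene also yields a soluble ST2 that binds IL-33 without signalling. The ends of the soluble (Il1rl1-205, 337 residues) and membrane (Il1rl1-201, 567 residues) coding sequences are shown to mark where they part, with the last 24 shared coding bases in lower case and the bases that follow in each form in capitals (chr1:40446652-40446701 and chr1:40446652-40450104, GENCODE M21, introns removed).
Il1rl1-205 soluble: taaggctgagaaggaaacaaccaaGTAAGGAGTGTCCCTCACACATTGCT
Il1rl1-201 membrane: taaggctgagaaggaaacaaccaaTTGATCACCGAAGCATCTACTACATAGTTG

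The membrane form had 25.0, 10.2 and 14.7 RPM after stimulation and 11.8, 20.1 and 13.9 in sham. The soluble form had 6.86, 3.07 and 2.72 against 3.62, 5.76 and 3.75. Both forms overlapped between groups. The soluble form held 20.06 ± 3.96% of the reads after stimulation and 22.34 ± 1.14% in sham (SD, n = 3). Counted per length, as a share of the gene's TPM, the shorter soluble form held 53.31 ± 9.1% and 54.65 ± 2.23%.

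Il1r1 (ENSMUSG00000026072.12, chr1:40225080-40317257, plus strand) encodes the signalling receptor for IL-1 alpha and IL-1 beta. It was at 29.2, 34.6 and 49.9 CPM after stimulation and at 29.9, 42.0 and 26.6 CPM in sham. The groups overlapped, with a log2 fold change of 0.21 (SE 0.29) that became -0.04 without stimulated replicate 3. Il1r1-202 (573 residues) held 69.93 ± 13.10% of the reads after stimulation and 77.48 ± 6.44% in sham, and Il1r1-201, from the farther upstream start, 28.21 ± 13.66% and 19.24 ± 6.21%.

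Il1r2 (ENSMUSG00000026073.13, chr1:40074079-40125231, plus strand), the decoy receptor, was at 21.0, 28.6 and 20.3 CPM after stimulation and at 7.46, 8.45 and 12.6 CPM in sham. Each stimulated library was above each sham library. The means were 23.3 ± 4.59 and 9.51 ± 2.73 CPM (SD, n = 3), with a fitted log2 difference of 1.29 (SE 0.29), or 2.45-fold, with 1.12 to 1.56 when each library was left out. The full-length coding transcript Il1r2-201 (410 residues) held 41.42, 32.72 and 38.13% of the reads after stimulation and 13.04, 33.65 and 15.90% in sham, overlapping at sham replicate 2. Il1r2-204, annotated as a target of nonsense-mediated decay, held 42.54 ± 5.59% and 49.68 ± 5.86%, so that the gene's CPM is not all full-length receptor RNA.

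Il1rap (ENSMUSG00000022514.14, chr16:26581704-26730117, plus strand), the accessory subunit, was at 12.0, 13.5 and 13.9 CPM after stimulation and at 8.89, 9.91 and 7.93 CPM in sham. The groups did not overlap, but the step was the smallest of the 5: means of 13.1 ± 0.996 and 8.91 ± 0.991 CPM (SD, n = 3), with a fitted log2 difference of 0.56 (SE 0.25), or 1.47-fold, and 0.50 to 0.67 when each library was left out. A shorter transcript, Il1rap-206 (360 residues), encodes a soluble protein without the membrane anchor that the full receptor subunit, Il1rap-201 (570 residues), has. The point where they part is shown as for Il1rl1 (chr16:26701213-26701265 and chr16:26701213-26710510).
Il1rap-206 soluble: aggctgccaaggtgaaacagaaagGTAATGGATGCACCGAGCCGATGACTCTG
Il1rap-201 membrane: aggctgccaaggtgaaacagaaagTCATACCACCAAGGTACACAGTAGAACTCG

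The membrane form had 8.49, 10.0 and 11.7 RPM after stimulation against 6.77, 7.91 and 7.25 in sham, and the soluble form 2.17, 2.46 and 2.76 against 1.44, 1.98 and 0.908. Neither form overlapped between groups. The soluble form held 18.32 ± 0.19% of the reads after stimulation and 15.03 ± 4.15% in sham. As a share of the gene's TPM it held 30.28 ± 2.37% and 25.74 ± 6.0%.

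Levels can be compared between genes only per length, for which transcript TPM was rescaled to the same sum over protein-coding transcripts in every library. On that scale the order of medians over the 6 libraries was Il1b (190.64), Il1r2 (68.07), Il1rn (39.92), Il33 (39.39), Il1r1 (31.52), Il1rl1 (20.51), Il1rap (10.84), Il18 (8.71) and Il1a (2.98). The ranges over libraries of most neighbours in this order overlapped. The exceptions were Il1rl1 (14.64 to 37.29) above Il1rap (7.02 to 14.11) and Il18 (4.79 to 16.22) above Il1a (1.43 to 3.23). Counting all transcripts of each gene, Il1b stood above every other member in each library, at 61.44 to 307.14. Its coding transcript Il1b-201 alone was at 25.9 to 130.2.

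The order differed between the groups. By sham means Il1r1 (30.47) stood above Il33 (24.87) and Il18 (11.01) above Il1rap (8.65), where after stimulation Il33 (57.75) stood above Il1r1 (33.91) and Il1rap (12.56) above Il18 (8.61). In sham the mean rescaled TPM of Il1rn, 14.17 ± 2.69 (SD, n = 3), lay below those of Il1b, Il1r2, Il1r1, Il33 and Il1rl1. After stimulation the Il1rn mean of 89.11 ± 22.78 lay below those of Il1b and Il1r2 alone. Per Il1r1 transcript there were 3.83, 2.86 and 1.59 Il1rn transcripts in the stimulated libraries and 0.59, 0.36 and 0.51 in sham. Those ratios did not overlap, and Il1rn RNA of all forms exceeded Il1r1 RNA in each stimulated library and in no sham library. The secreted Il1rn form alone did not exceed Il1r1 after stimulation. It was at a rescaled TPM of 12.29 to 19.97, below the 27.53 to 39.74 of all Il1r1 transcripts. Of the Il1rn TPM after stimulation, the downstream intracellular form held a mean of 61.78% and the secreted form 18.55%. Il1rn per Il1b, counting all transcripts of each gene, was 0.34, 0.38 and 0.25 after stimulation and 0.27, 0.15 and 0.09 in sham, which overlap. That is not a ratio to agonist-coding RNA alone. The noncoding Il1b-202 held a mean of 57.28% of the Il1b TPM after stimulation and 57.38% in sham. The coding Il1b-201 held 35.91% and 36.04%, at a rescaled TPM of 130.2, 90.6 and 77.6 against 25.9, 31.8 and 42.5. The decoy per signalling receptor, Il1r2 per Il1r1, was 3.65, 4.19 and 2.07 against 1.27, 1.02 and 2.41, overlapping at sham replicate 3. Most of this Il1r2 total was not full-length decoy RNA. The full-length Il1r2-201 held a mean of 16.37% of the gene's TPM after stimulation and 8.55% in sham. Il1r2-203, of 366 bases and 2 coding residues, held 49.9% and 49.51%. Il1r2-201 itself was at a rescaled TPM of 19.4, 18.7 and 13.9 against 1.93, 6.24 and 2.80, which did not overlap. Il33 per Il1rl1, again counting all transcripts of each gene, was 1.69, 2.91 and 3.54 against 1.19, 0.82 and 1.27, which did not overlap. That is not a ratio to signalling receptor RNA alone, since soluble forms held a mean of 53.31% and 54.65% of the Il1rl1 TPM. Of the Il33 TPM, Il33-202 (266 residues) held 18.49% and 18.74%, and Il33-205 (228 residues) 43.46% and 42.67%. The 66-residue Il33-204 held 29.52% and 32.79%.

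Other genes of the pathway were read from 4 lists, for each of which edgeR called 0 genes at an adjusted p of 0.05 over all genes tested. Of 12 other family ligands, binding proteins and receptors, 9 were tested (Il1f6, Il1f8 and Il1f10 were not), 6 higher and 3 lower, with a median log2 fold change of 0.70 against -0.02 for all genes. At an unadjusted p under 0.05 there were 3, all higher, and DESeq2 called 0 (over all genes, 7.05% and 0.855%). Groups did not overlap in 3 that were higher and 1 that was lower (44.4%, against 12.0% of all genes). The lower one, named after its value was seen, was Sigirr, which encodes a negative regulator of the family, at 11.7, 18.0 and 15.8 CPM after stimulation and 18.2, 19.0 and 27.1 CPM in sham (-0.49, SE 0.28). Il1f9, the IL-36 gamma gene, was at 9.38, 3.84 and 5.75 CPM after stimulation and 2.49, 3.03 and 1.47 CPM in sham, for a log2 fold change of 1.44 (SE 0.44), and all its stimulated values were above sham. Both subunits of the IL-18 receptor had positive values, Il18r1 at 0.85 (SE 0.35) and Il18rap at 0.70 (SE 0.30), with Il18r1 not overlapping (26.0 to 36.2 against 9.59 to 24.4 CPM). Il18bp, the secreted binder that neutralises IL-18, was at -0.65 (SE 0.31) with overlapping groups, and at -0.13 from summed transcript reads.

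Of 20 genes for processing and release, 18 were tested (Elane and Prtn3 were not), 11 higher and 7 lower, with a median of 0.11. At an unadjusted p under 0.05 there were 2, both higher, and DESeq2 called 1 (over all genes, 7.05% and 0.855%). Groups did not overlap in 2 that were higher and 1 that was lower, Nlrp1a (16.7%, near the 12.0% of all genes). Mefv, the gene of the inflammasome sensor pyrin, was at 8.48, 5.52 and 5.79 CPM after stimulation and 2.27, 2.98 and 2.31 CPM in sham, for a log2 fold change of 1.39 (SE 0.33). Nlrp3, the inflammasome sensor induced by NF-kB, was at 17.4, 9.36 and 13.6 CPM against 4.09, 7.2 and 7.88 CPM, a log2 fold change of 1.08 (SE 0.36). In both genes no stimulated library overlapped sham. Nlrp1a was at -1.04 (SE 0.48). Pycard, the adaptor ASC, was at 0.62 (SE 0.34) but at -0.08 from summed transcript reads.

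All 36 genes of receptor signalling and its brakes were tested, 22 higher and 14 lower, with a median of 0.09. At an unadjusted p under 0.05 there was 1, lower, and DESeq2 called 0 (over all genes, 7.05% and 0.855%). Groups did not overlap in 1 of them (2.78%, below the 12.0% of all genes). It was Myd88, the adaptor of the whole family (32.4 to 52.6 against 26.9 to 30.7 CPM, log2 fold change 0.46, SE 0.26). Without sham replicate 2, groups did not overlap in 6 of the 36 (16.7%, against 17.4% of all genes). Traf3 was at 0.59 (SE 0.37) and Tnip1, a brake on NF-kB, at 0.48 (SE 0.27), values that were 1.11 and 0.80 without sham replicate 3 and 0.30 and 0.32 without sham replicate 2. Peli2, a ubiquitin ligase of the pathway, was at -0.90 (SE 0.37), and at -0.39 without sham replicate 2, which held its highest value of 42.6 CPM.

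Of 33 genes known to be induced by IL-1, 32 were tested (Ccl20 was not), 23 higher and 9 lower, with a median of 0.30. At an unadjusted p under 0.05 there were 7 higher and 1 lower, and DESeq2 called 5 (over all genes, 7.05% and 0.855%). Groups did not overlap in 9 that were higher and 2 that were lower (34.4%, against 12.0% of all genes). The 2 lower ones were named after their values were seen. Nos2 was at 15.9, 12.3 and 13.3 CPM after stimulation and 23.5, 45.7 and 24.4 CPM in sham (-1.17, SE 0.32). Mmp13 was low throughout, at 0.442 to 0.69 against 0.735 to 1.95 CPM (-1.15, SE 0.59). Ccl7, a monocyte chemoattractant, was at 25.0, 12.2 and 18.5 CPM after stimulation and 3.6, 4.44 and 5.09 CPM in sham, for a log2 fold change of 2.08 (SE 0.34). Ccl2, its neighbour in function, was at 1.27 (SE 0.27), from 9.06 ± 1.67 to 21.9 ± 3.74 CPM (SD, n = 3). Lif, an IL-6 family cytokine, was at 12.9 to 16.7 against 4.22 to 8.4 CPM, a log2 fold change of 1.27 (SE 0.32) that was 0.67 from summed transcript reads. Csf3, the granulocyte growth factor, had 14.2 to 21.4 estimated reads in the stimulated libraries and 0.9 to 2.1 in sham, too few for a fold. Il6, Ptgs2, Icam1, Vcam1 and Socs3, which IL-1 is also known to induce, all overlapped between groups, with log2 fold changes of 0.32, 0.33, 0.09, 0.17 and 0.11. They were named after their values were seen. The overlap of Il6 came from sham replicate 2 (13.2 CPM): without it Il6 was at 7.78 to 9.85 against 3.29 and 5.36 CPM, with a log2 fold change of 1.07 (SE 0.36), and the other genes of these 5 still overlapped.

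**Figure D3:**
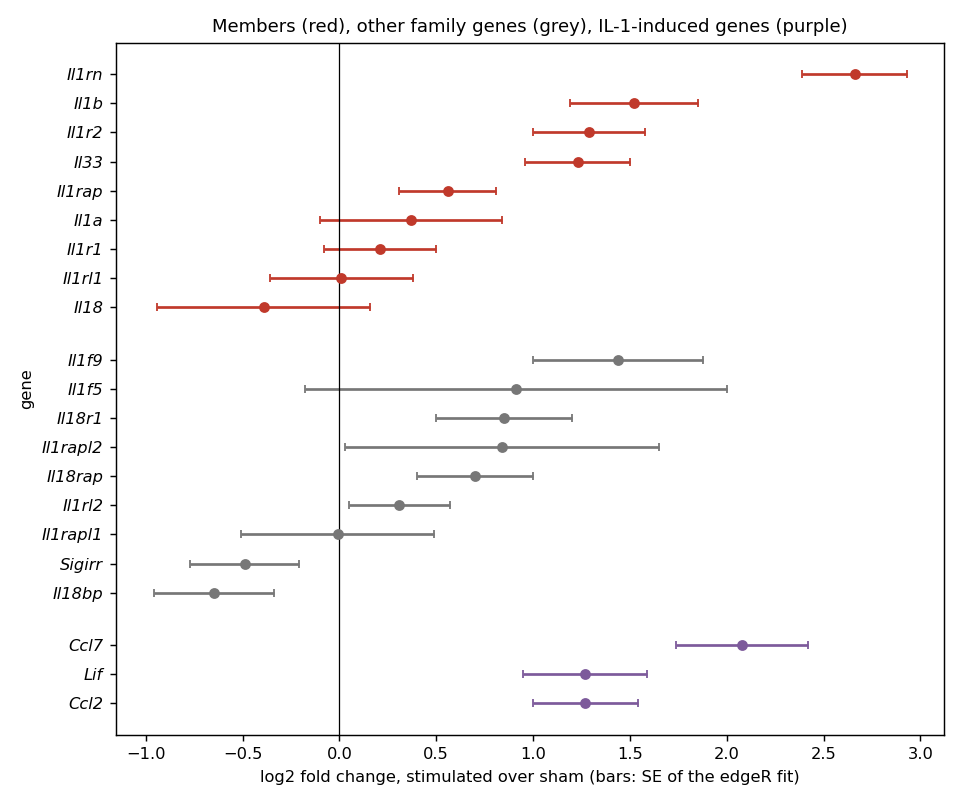
Log2 fold changes of stimulated over sham with bars of 1 SE from the edgeR fit, for the 9 members (red), the 9 other family genes tested (grey) and Ccl7, Lif and Ccl2 (purple). The members run from -0.39 for Il18 to 2.66 for Il1rn, and the other family genes from -0.65 for Il18bp to 1.44 for Il1f9.

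The genes whose levels ran most like a member's were found by the root mean square (RMS) difference of centred log2 CPM over the 6 libraries, among 13667 genes. This is a description over 6 libraries that share the sort and the contrast. Nearest to Il1rn were Kif1a (RMS 0.323), Greb1l (0.386), Acod1 (0.388), Hcar2 (0.406) and S100a9 (0.417). Acod1 encodes the enzyme that makes itaconate in activated myeloid cells, and was at 19.9, 15.7 and 16.1 CPM after stimulation and 4.71, 4.28 and 4.52 CPM in sham. Hcar2 encodes a niacin receptor of myeloid cells and adipocytes, and S100a9 a calprotectin subunit. The profiles of Kif1a and Greb1l depend on the gene table's length scaling, since their log2 fold changes of 2.56 and 3.12 were 0.96 and -0.29 from summed transcript reads.

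Nearest to Il1b were Sh3bp2 (0.107), Tnfaip2 (0.229), Lif (0.271), Hps4 (0.293) and Csf2rb (0.303), the last encoding the common beta chain of the GM-CSF, IL-3 and IL-5 receptors. Each shared the order of Il1b in sham, lowest in replicate 1 and highest in replicate 3, for example Csf2rb at 17.6, 31.2 and 50.1 CPM. From summed transcript reads the log2 fold changes of Sh3bp2, Hps4 and Csf2rb were 0.43, 0.03 and 0.61, where the gene table gave 1.52, 1.11 and 1.17. Nearest to Il33 were Ifi205 (0.139), Hps4 (0.182), Ppan (0.184), Ccl2 (0.184) and Dedd (0.196). From summed transcript reads Ppan went from 0.92 to 0.42 and Dedd from 1.02 to 0.11, as Hps4 did to 0.03, while Ifi205 (1.13) and Ccl2 (1.22) stayed near the gene table's 1.16 and 1.27. Nearest to Il1r1 were Rell1 (0.112), Cd3eap (0.119), Ldhd (0.121), Memo1 (0.126) and Ap3s1 (0.127), with log2 fold changes of 0.04 to 0.21.

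Markers of other cell types moved beside the members. All 12 tested of 14 neutrophil markers were higher after stimulation, 9 of them without overlap (6.12% of all genes were), and their summed level was 141.4 to 238.5 CPM against 47.21 to 69.71 CPM in sham, which did not overlap. S100a9 was at 41.8 ± 14.6 against 7.75 ± 1.79 CPM and Csf3r, the receptor for the granulocyte growth factor, at 34.1 ± 6.96 against 14.1 ± 5.86 CPM (SD, n = 3). Ly6g, Camp and Wfdc21 were at 0 in some libraries. Neutrophils are known to carry much Il1rn, Il1b and Il1r2 RNA, and the part of these markers in the members' differences was not tested.

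Macrophage and monocyte markers did not follow the same course: 4 of 15 were higher and 11 lower, with sums of 607.2 to 935.0 CPM after stimulation and 410.1 to 1336.0 CPM in sham. Lymphocyte markers were higher in 12 of 12, 6 of them without overlap (6.12% of all genes were). Those 6 were Cd4, Lck, Cd3d, Cd3g, Cd3e and Cd8a. The lymphocyte sums overlapped, at 1621.0 to 2120.0 against 247.6 to 2260.0 CPM. Innate lymphoid cells and mast cells can carry Il1rl1. Markers of innate lymphoid cells were higher in 4 of 5 tested, 2 of them without overlap (Il17rb and Il5). Their sums, most of which were Gata3, overlapped at 63.29 to 105.9 against 49.61 to 88.9 CPM. Mast cell markers were lower in 7 of 7, with overlapping sums of 108.7 to 205.0 against 133.8 to 252.6 CPM.

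Endothelial markers were lower in 16 of 16, at 2871.0 to 4383.0 CPM after stimulation and 4569.0 to 11560.0 CPM in sham, with no overlap. Pericyte markers were lower in 11 of 12 (190.5 to 437.0 against 347.3 to 721.1 CPM) and fibro-adipogenic markers in 8 of 8 (539.8 to 1339.0 against 896.7 to 1631.0 CPM). Smooth muscle markers were lower in 5 of 5 (57.94 to 145.2 against 107.0 to 309.8 CPM, overlapping).

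Myofibre markers, genes of the contractile fibre itself, were higher in 7 of 7, and their sums of 42.09, 43.16 and 142.2 CPM did not overlap the 23.59 to 41.12 CPM of sham, with stimulated replicate 3 far above the others. Satellite cell markers were at 2.858 to 33.55 against 5.671 to 17.68 CPM and dendritic cell markers at 96.23 to 122.4 against 98.27 to 157.3 CPM, both overlapping. edgeR called 0 genes of any marker list. The parts of these cell types in the members' differences were not tested.

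**Figure D4:**
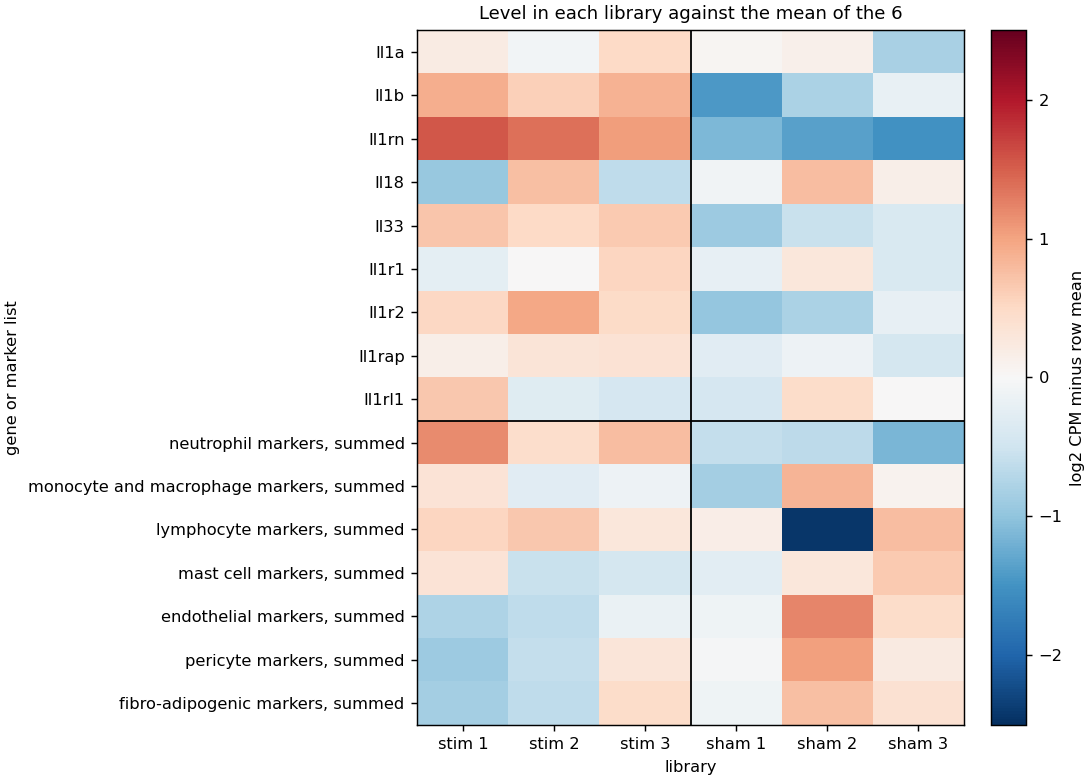
Log2 CPM of each member and log2 of the summed CPM of 7 marker lists in each library, after subtracting the row's mean over the 6 libraries (red above, blue below; the vertical line parts stimulated from sham). Il1rn, Il1b, Il1r2, Il33, Il1rap and the neutrophil sum are above their means in all stimulated libraries and below them in all sham libraries. Sham replicate 2 stands out in the lymphocyte and endothelial rows.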

How the data were processed

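Total RNA of sorted cells was sequenced in 6 libraries, 3 stimulated and 3 sham, made with a stranded kit for very low input, per the labels' protocols. Per the submitters' processing notes, Salmon 0.8.2, Trimmomatic 0.36, edgeR, R 3.5.1 and bcl2fastq 2.17.1.14 were used with build GRCm38, with settings not given in the sources used here. Files of the authors hold estimated counts of 53715 genes in 1 table and, per the file headers, TPM and estimated counts of 135181 transcripts per library. In 14096 genes with TPM above 0.1 in every library the deposited gene count was TPM times a factor per gene and one per library, within 1% in 100.0%, so it is length-scaled. The 3 most abundant transcripts, none longer than 57 bases, took 69.9 to 77.5% of TPM, hence the rescaling of TPM to protein-coding transcripts.

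Gene counts were rounded, filtered with filterByExpr (minimum count 10, minimum total 15), scaled by TMM and tested with edgeR 4.0.16 (robust quasi-likelihood, R 4.3.3), stimulated against sham with no other term and Benjamini-Hochberg adjustment at 0.05. The common biological coefficient of variation was 0.4. Alternatives were DESeq2 1.42.0, limma 3.58.1 voom, RLE size factors, other filters, summed transcript reads, a replicate block and leaving out each library; counts without sham replicate 2, the ratios of Il1rn forms with each library left out and 5 IL-1-induced genes without sham replicate 2 were added after the data were examined. The fits and the search for similar profiles were tested on simulated data. Depth was 17520338 to 23709220 estimated reads. Values below about 30 reads per library are imprecise from counting alone.

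The members, the gene and marker lists and the tests were chosen with earlier results of these data known. Named were all members, up to 4 genes per pathway list by unadjusted p, the 5 genes nearest in profile to each of Il1rn, Il1b, Il1r1 and Il33 (mean log2 CPM of at least 1, prior count 2, no clone-like symbol), the sort genes, and up to 3 markers per list by mean CPM, of which some are printed. Transcript forms were assigned from the coding starts and ends in GENCODE M21, where all 38 member transcripts and 9 gene identifiers matched; promoter windows are from RefSeq.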

Additional observations from a re-analysis of the deposited data

How the results depend on the processing

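The main test called 0 genes. It called 3 with RLE size factors, 109 with no filter on low counts (44 higher, 65 lower), 1 from reads summed over transcripts and 3 at an adjusted p of 0.1, and DESeq2 called 227 (74 higher, 153 lower). Leaving out each library gave 0 to 1, the 1 without stimulated replicate 3. Of the pathway genes 0 were called, against 6 by DESeq2 (Mefv, Lcn2, Lif, Ccl7, Ccl2 and Cxcl2) and 2 with no filter (Lcn2 and Ccl7), and 0 to 0 with each library left out. Same-numbered libraries of both groups had correlations of their deviations of 0.317, -0.161 and 0.128, so the numbers are not taken to pair animals; with the replicate block 0 genes and 0 pathway genes were called. Without sham replicate 2, groups did not overlap in 6 signalling genes, against 1 with all libraries; in members the count was 5 either way. For Il1rn, shares by estimated reads in place of TPM were 40.28% (stimulated) and 28.33% (sham) for the downstream form, 39.61% and 40.01% for the secreted form and 15.07% (stimulated) for the upstream forms. With each library left out, shares of TPM were 58.16 to 63.64% and 39.7 to 45.74% for the downstream form, 18.09 to 19.2% and 13.14 to 27.15% for the secreted form, and 7.72 to 10.47% and 2.98 to 23.84% for the upstream forms. The sign of a log2 fold change turned for Il1r1 (-0.04 without stimulated replicate 3, and up to 0.44 with others left out), for Il1rl1 (-0.03 with limma voom, -0.04 with the replicate block, -0.37 to 0.26 with each library left out), for Pycard, Greb1l and Rell1 from summed reads (-0.08, -0.29 and -0.04), and, without stimulated replicate 3, for Cd3eap (-0.01, and up to 0.35 with others left out), Ldhd (-0.05) and Ap3s1 (-0.22, also -0.03 and -0.002 without sham replicates 1 and 3). Of 117 member values under the alternatives, 114 moved by less than 1 SE. The causes were not tested. Il1rn (2.58 to 2.79), Il1b (1.26 to 1.89), Il1r2 (1.12 to 1.56), Il33 (1.09 to 1.39) and Il1rap (0.50 to 0.67) stayed above 0 under each alternative run. Il1a and Il18 are limited by depth, at 12 to 49 reads per library, as are the Il1rn forms in sham.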
